A study of Mus musculus with 6 samples.

Results

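Photoreceptor ribbon synapse genes encode the proteins that hold, fuse and refill the synaptic vesicles of rods and cones. The set has 10 members, *Ctbp2*, *Bsn*, *Pclo*, *Cacna1f*, *Cabp4*, *Cacna2d4*, *Cplx4*, *Stx3*, *Slc17a7* and *Egflam*, which were looked up by gene symbol in a table of 11339 retinal genes. Values are given for 9 of the 10, and *Cabp4*, a calcium sensor bound to the photoreceptor calcium channel, is not analysed here. RNA was sequenced from whole retina at P14, the postnatal day 14 at which the outer retinal synapses of the mouse have formed, in 3 *Mll1KO* and 3 WT samples. *Mll1KO* mice had the genotype MLL1 fl/fl on the C57Bl6/J strain, with both alleles of *Mll1* floxed and with a transgene that drives Cre recombinase in retinal progenitor cells. WT mice are given as wild type, C57Bl6/J and of the same age, with no floxed allele and no Cre named for them, so that loss of *Mll1* and presence of Cre cannot be told apart in this comparison. Each sample was made from 2 retinas, and the study describes a few cells that still hold the unrecombined transcript in *Mll1KO* retina.

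Most synapses release transmitter in short bursts, whereas a photoreceptor releases glutamate all the time in darkness and slows this release in light. It does so with a ribbon, a protein plate that tethers vesicles above a row of L-type calcium channels at the presynaptic membrane. Across the cleft, dendrites of bipolar and horizontal cells enter a pocket of the terminal, and ON bipolar cells read the glutamate signal with the receptor mGluR6.

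The floxed gene comes first, *Kmt2a* (ENSMUSG00000002028), as *Mll1* is now called. Its level in RPKM, the reads of a gene scaled to its length and to the reads of its library, was 36.1, 36.9 and 34.6 in WT libraries a, b and c and 22.9, 20.4 and 22.3 in *Mll1KO* libraries a, b and c. Each *Mll1KO* library was under the lowest WT library, at 60.9% of the WT mean. It fell, with a log2 fold change of -0.69 ± 0.05 (SE) and an adjusted p of 2.77e-05 by limma with Benjamini-Hochberg adjustment. RPKM sums reads over the whole gene, and exons outside the floxed part add to it.

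Fold changes here are differences of mean log2(RPKM + 1), *Mll1KO* minus WT, and a gene is called at an adjusted p under 0.05. On this scale changes of weakly expressed genes are understated. The libraries held between 17961097 and 23836033 reads assigned to genes, and the members had at least 5043 reads in each library. Of all 11339 genes, 2643 (23.3%) were called, 999 (8.81%) higher and 1644 (14.5%) lower in *Mll1KO*. Of the 9 members, 2 were called, *Cplx4* and *Slc17a7*, both higher and both encoding parts of the release machinery. A share of 2 in 9 is near the background of 23.3%, and so the number of calls does not set the members apart from other retinal genes. By limma-voom, a test on the read counts recovered from RPKM, 5 of the 9 were called against 25.6% of all genes, since *Cacna1f*, *Bsn* and *Ctbp2*, which lay just outside the threshold, then passed it. *Mll1KO* and WT values did not overlap for 7 of the 9 members, and for 4657 (41.1%) of all genes. The median log2 fold change was 0.03 over the 9 members and -0.03 over all genes. Without WT sample b the number of called genes was 1704 and without *Mll1KO* sample c it was 1757, and the same pair of members was called in both cases.

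The members differed widely in level. In WT, *Slc17a7* stood at 652 ± 3.07 RPKM (SD, n = 3), followed by *Cplx4* at 192 ± 6.16 RPKM and *Stx3* at 148 ± 4.35 RPKM. *Cacna1f* (81.5 ± 1.26 RPKM) and *Cacna2d4* (81.3 ± 0.467 RPKM), subunits of a single channel, did not differ beyond their spread. *Ctbp2* followed at 71.5 ± 1.71 RPKM and *Egflam* at 50.7 ± 2.67 RPKM. *Pclo* (21.0 ± 0.971 RPKM) and *Bsn* (20.2 ± 0.0209 RPKM), the giant scaffold proteins of the active zone, stood lowest and within a spread of each other. In *Mll1KO* the order was the same, from *Slc17a7* at 761 ± 29.1 RPKM down to *Bsn* at 18.3 ± 1.01 RPKM, and *Cacna1f* (88.2 ± 1.37 RPKM) then stood above *Cacna2d4* (83.3 ± 0.695 RPKM) by more than the spread of either.

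**Figure D1:**
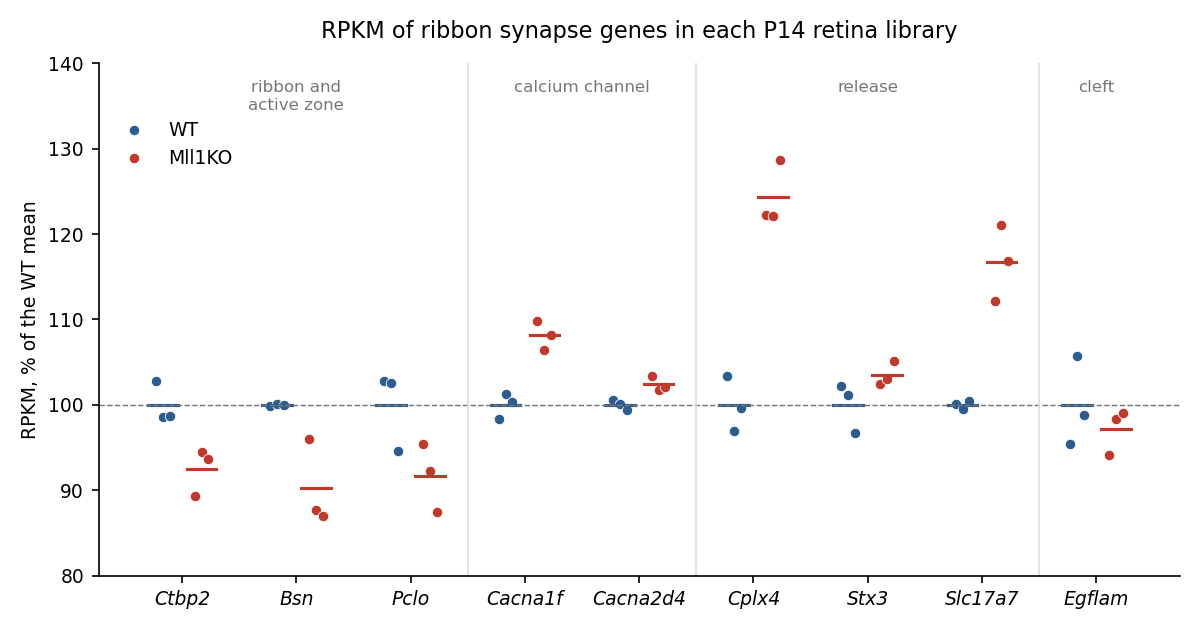
RPKM of the 9 measured members in each library, as a percentage of the WT mean of that gene, with WT in blue, *Mll1KO* in red, one point per library and a bar at the group mean. The means of the 3 ribbon and active zone genes lie between 90.2% and 92.5% of WT, those of *Cplx4* and *Slc17a7* at 124% and 117%.

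The first group by role is the ribbon and its anchors. *Ctbp2* (ENSMUSG00000030970; minus strand, chr7:132987563-133124354 in GRCm38) encodes RIBEYE, the main protein of the ribbon, and from another start the transcriptional corepressor CtBP2. Its values were 73.4, 70.4 and 70.5 RPKM in WT libraries a, b and c, and 63.8, 67.5 and 66.9 RPKM in *Mll1KO* libraries a, b and c. The groups did not overlap, every *Mll1KO* library being under WT, with *Mll1KO* sample a the lowest. The mean was 92.5% of WT, a log2 fold change of -0.11 (95% confidence interval -0.20 to -0.02) that was not called (limma with Benjamini-Hochberg adjusted p = 0.0692). Of the exon bases of *Ctbp2*, 5.05% also lie in exons of *Fgfr2*, so a small share of its reads could be assigned to either gene.

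Bassoon, encoded by *Bsn* (ENSMUSG00000032589; minus strand, chr9:108096022-108190384), anchors the ribbon to the presynaptic membrane. *Bsn* measured 20.2, 20.3 and 20.2 RPKM in WT libraries a, b and c and 19.4, 17.7 and 17.6 RPKM in *Mll1KO* libraries a, b and c. The WT samples were nearly equal, and all *Mll1KO* samples were below them, sample a by the least. At 90.2% of WT, the log2 fold change of -0.14 (interval -0.25 to -0.04) missed the threshold (limma with Benjamini-Hochberg adjusted p = 0.0543). Without *Mll1KO* sample a it was -0.19 and was called (adjusted p = 0.0165 from limma with Benjamini-Hochberg adjustment, within a range of 5.5e-05 to 0.171 over 18 alternatives).

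Piccolo, the product of *Pclo* (ENSMUSG00000061601; plus strand, chr5:14514918-14863459), is related to bassoon and occurs at ribbons in a short form, piccolino. *Pclo* stood at 21.5, 21.5 and 19.8 RPKM in WT libraries a, b and c and at 19.99, 19.3 and 18.3 RPKM in *Mll1KO* libraries a, b and c. The groups overlapped, since WT sample c was below *Mll1KO* sample a. The mean was 91.7% of WT, with a log2 fold change of -0.12 (interval -0.23 to -0.01) that was not called (limma with Benjamini-Hochberg adjusted p = 0.115). Of the 3 members of the ribbon group, 0 were thus called by limma with Benjamini-Hochberg adjustment. The unadjusted p by limma was 0.0189 for *Ctbp2*, 0.0132 for *Bsn* and 0.0397 for *Pclo*, and limma-voom called *Bsn* and *Ctbp2* (adjusted p = 0.0243 and 0.0495).

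*Ctbp2* RNA comes from several starts, and the RPKM of the gene adds them up. In the GENCODE annotation of GRCm38, the complete transcript of the CtBP2 form spans chr7:132987621-133123367 and codes for 445 residues. A longer coding transcript begins far inside the gene, spans chr7:132987578-133015248, and codes for 988 residues, the long form with the ribbon domain. Of its 3604 exon bases, 1737 are in no other complete coding transcript of *Ctbp2* and 1867 are shared, so that a value per gene does not tell RIBEYE from CtBP2. RefSeq promoters (GRCm38.p6) were used for 7 of the 10 members, and those of *Cabp4*, *Cacna2d4* and *Cplx4* are not analysed here. There were 9 promoters for these 7 genes, each of 300 bases with the last 50 after the start. For *Ctbp2* they include the inner start and another between it and the start of the 445-residue form, whose own promoter is not analysed here. Short motifs of photoreceptor transcription factors were searched on both strands of the 300 bases, TAATCC, the core bound by CRX, and TGCTGA, part of the NRL response element. TAATCC was found in 2 of the 9 promoters (*Ctbp2* and *Stx3*), against 7.06% of all 32851 promoters of this length, 15 of 100 promoters of the synaptic lists described below and 7 of 21 promoters of rod and cone genes. In *Stx3* the match begins 31 bases after the start, in the last 50 bases. TGCTGA was found in 0 of the 9, against 19.5% of all promoters, 21 of 100 and 3 of 21. A match is a description of letters and not a measured binding site. The bases before the 2 searched *Ctbp2* starts are shown because the inner one, at the start of the 988-residue form, holds a match and the other does not. The match is in capitals and reads as TAATCC on the opposite strand, 121 bases before the start. Both stretches are on the minus strand, chr7:133015248-133015497 for the inner start and chr7:133081861-133082110 for the other.
Ctbp2 inner start: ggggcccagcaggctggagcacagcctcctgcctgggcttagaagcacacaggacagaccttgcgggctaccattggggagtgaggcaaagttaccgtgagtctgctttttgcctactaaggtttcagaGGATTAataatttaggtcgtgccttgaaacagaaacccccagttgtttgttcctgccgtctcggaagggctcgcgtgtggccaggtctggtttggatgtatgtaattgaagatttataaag
Ctbp2 other start: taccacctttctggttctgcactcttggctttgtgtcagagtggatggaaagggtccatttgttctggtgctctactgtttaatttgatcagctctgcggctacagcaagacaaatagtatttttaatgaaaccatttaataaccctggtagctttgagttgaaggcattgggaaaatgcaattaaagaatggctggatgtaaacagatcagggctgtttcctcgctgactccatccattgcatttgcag

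The second group is the calcium channel. *Cacna1f* (ENSMUSG00000031142; plus strand, chrX:7607083-7635196) encodes the pore of Cav1.4, the channel that lets calcium in below the ribbon. Its level was 80.2, 82.6 and 81.8 RPKM in WT libraries a, b and c and 89.5, 86.8 and 88.2 RPKM in *Mll1KO* libraries a, b and c. Every *Mll1KO* sample was above every WT sample. The mean was 108% of WT, and the log2 fold change of 0.11 (interval 0.03 to 0.19) lay just outside the threshold (limma with Benjamini-Hochberg adjusted p = 0.0510), inside it with limma-voom and with the scalings by median of ratios, trimmed mean of M values and upper quartile, and at -0.18 when scaled to rod genes.

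*Cacna2d4* (ENSMUSG00000041460; plus strand, chr6:119236526-119352407) encodes the α2δ4 subunit, which brings Cav1.4 to the terminal and keeps it there. The gene measured 81.8, 81.4 and 80.9 RPKM in WT libraries a, b and c and 84.1, 82.8 and 83.1 RPKM in *Mll1KO* libraries a, b and c. Here too the groups did not overlap, with a narrow gap between WT sample a, the highest of its group, and *Mll1KO* sample b, the lowest. The log2 fold change was 0.03 (interval -0.04 to 0.11; limma with Benjamini-Hochberg adjusted p = 0.515), and -0.26 when scaled to rod genes.

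The ratio of *Cacna1f* to *Cacna2d4* within a library, which no scaling of libraries can alter, was 0.980, 1.01 and 1.01 in WT libraries a, b and c and 1.06, 1.05 and 1.06 in *Mll1KO* libraries a, b and c. All 3 *Mll1KO* ratios were above all WT ratios (exact two-sided permutation p = 0.1, the smallest that 3 against 3 samples allow). This and the other ratios between genes were chosen after the values were seen, 6 ratios in all, of which 5 are reported. *Cacna1d*, which encodes Cav1.3, an L-type channel of other ribbon-bearing and conventional neurons, fell, with a log2 fold change of -0.26 (limma with Benjamini-Hochberg adjusted p = 0.00302). The ratio of *Cacna1f* to *Cacna1d* was 5.68, 5.79 and 5.71 in WT libraries a, b and c and 7.53, 7.21 and 7.88 in *Mll1KO* libraries a, b and c. These groups were far apart (exact two-sided permutation p = 0.1, the smallest possible), so that Cav1.4 RNA made up more of the sum of both L-type channels in *Mll1KO*.

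The third group acts in vesicle fusion and filling, and it holds both called members. *Cplx4* (ENSMUSG00000024519) encodes complexin 4, a clamp and helper of the fusion complex that is found at ribbon synapses and, in the outer retina of the mouse, in rod terminals. Its level was 198, 186 and 191 RPKM in WT libraries a, b and c and 234, 234 and 247 RPKM in *Mll1KO* libraries a, b and c. The lowest *Mll1KO* value exceeded the highest WT value. *Cplx4* rose to 124% of WT, with a log2 fold change of 0.31 ± 0.04 (SE; adjusted p = 0.000957 by limma with Benjamini-Hochberg adjustment). It was called in 17 of 18 alternatives, the exception being the scaling to rod genes, where its log2 fold change was 0.02.

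*Cplx3*, the other complexin of retinal ribbon synapses, known from cone terminals, rod bipolar cells and some amacrine cells, went the other way. It measured 121, 113 and 122 RPKM in WT libraries a, b and c and 85.8, 89.9 and 102 RPKM in *Mll1KO* libraries a, b and c. The groups did not overlap, and *Mll1KO* sample c came closest to WT. *Cplx3* fell, with a log2 fold change of -0.36 ± 0.06 (SE; adjusted p = 0.0036 by limma with Benjamini-Hochberg adjustment). Within each library, the ratio of *Cplx4* to *Cplx3* was 1.63, 1.65 and 1.57 in WT libraries a, b and c and 2.73, 2.60 and 2.41 in *Mll1KO* libraries a, b and c. All *Mll1KO* ratios lay far above the WT ratios (exact two-sided permutation p = 0.1, the smallest possible).

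*Slc17a7* (ENSMUSG00000070570; plus strand, chr7:45163949-45176142) encodes VGLUT1, which loads glutamate into vesicles in photoreceptors and bipolar cells. It stood at 653, 649 and 655 RPKM in WT libraries a, b and c and at 731, 790 and 763 RPKM in *Mll1KO* libraries a, b and c. WT samples were tightly grouped, *Mll1KO* samples were more spread, and all of them were above WT. *Slc17a7* rose to 117% of WT, with a log2 fold change of 0.22 ± 0.05 (SE; adjusted p = 0.0118 by limma with Benjamini-Hochberg adjustment), and was called in 17 of 18 alternatives, with a log2 fold change of -0.07 in the remaining one, the scaling to rod genes. In bulk RNA, more cells of a type and more RNA per cell cannot be told apart, here or in any other result, and the same holds for fewer cells and less RNA. The ratio of *Slc17a7* to *Slc17a6*, which encodes VGLUT2 of ganglion cells, was 38.3, 36.5 and 35.6 in WT libraries a, b and c and 42.7, 47.1 and 55.0 in *Mll1KO* libraries a, b and c. The groups did not overlap, with a wide spread in *Mll1KO* (exact two-sided permutation p = 0.1, the smallest possible).

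*Stx3* (ENSMUSG00000041488; minus strand, chr19:11775118-11819403) encodes syntaxin 3, which acts in the fusion complex of ribbon synapses and also serves membrane traffic to the outer segment. Its level was 152, 150 and 143 RPKM in WT libraries a, b and c and 152, 153 and 156 RPKM in *Mll1KO* libraries a, b and c. The groups did not overlap but nearly touched, since *Mll1KO* sample a, the lowest of its group, was only just above WT sample a, the highest of its own. The log2 fold change was 0.05 (interval -0.04 to 0.14; limma with Benjamini-Hochberg adjusted p = 0.399), and -0.24 when scaled to rod genes.

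The cleft is represented by *Egflam* (ENSMUSG00000042961; minus strand, chr15:7206120-7398395), which encodes pikachurin, a secreted ligand of dystroglycan that aligns bipolar dendrite tips with the ribbon. It measured 48.4, 53.7 and 50.1 RPKM in WT libraries a, b and c and 47.7, 49.9 and 50.3 RPKM in *Mll1KO* libraries a, b and c. The groups overlapped, and WT sample b was the highest of all 6 samples. The log2 fold change was -0.04 (interval -0.14 to 0.06; limma with Benjamini-Hochberg adjusted p = 0.579), and without WT sample b it was 0.000704.

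RPKM is relative to the library total, and a terminal protein of rods can also be read against the rod genes of the same library. Of 19 rod genes, 19 were measured, 13 rose and 1 fell, with a median log2 fold change of 0.24 (-0.05 when scaled to their own sum). Their summed level was 20046, 19142 and 19614 RPKM in WT libraries a, b and c and 23937, 24420 and 23709 RPKM in *Mll1KO* libraries a, b and c. Of 11 cone genes, 8 rose and 1 fell (3 and 3 when scaled to rod genes), and their summed level was 596, 622 and 633 RPKM in WT libraries a, b and c and 679, 707 and 721 RPKM in *Mll1KO* libraries a, b and c, with *Gnb3* the most abundant. Of 13 bipolar genes, 0 rose and 8 fell by limma with Benjamini-Hochberg adjustment, and their summed level was 573, 568 and 559 RPKM in WT libraries a, b and c and 473, 471 and 481 RPKM in *Mll1KO* libraries a, b and c. Bipolar cells carry ribbons too and express several of the members, so that their genes and the members share a source. The part that these shifts among cell types have in the members' values was not tested.

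In log2(RPKM) minus the mean log2(RPKM) of the 19 rod genes of the library, *Ctbp2* stood at -2.80, -2.87 and -2.86 in WT libraries a, b and c and at -3.18, -3.14 and -3.15 in *Mll1KO* libraries a, b and c. Relative to rod genes, *Ctbp2* was thus at 80.6% of WT, *Bsn* at 78.6% and *Pclo* at 79.9%, each without overlap of the groups, *Mll1KO* being lower. *Egflam* was at 84.7%, *Cacna2d4* at 89.3%, *Stx3* at 90.2% and *Cacna1f* at 94.3% of WT by this measure, also without overlap. *Slc17a7* stood at 0.35, 0.33 and 0.35 in WT libraries a, b and c and at 0.34, 0.41 and 0.37 in *Mll1KO* libraries a, b and c, so that the groups overlapped and the mean was 102% of WT (exact two-sided permutation p = 0.4). *Cplx4* alone among the 9 members was higher in *Mll1KO* relative to rod genes without overlap, at 108% of WT. For 8 of the 9 members the exact two-sided permutation p was 0.1, the smallest that 3 against 3 samples allow, which cannot pass 0.05. The rod genes themselves rose, and relative to them the groups did not overlap for 8190 (72.2%) of all genes, 68.7% with *Mll1KO* lower and 3.55% with *Mll1KO* higher. Against the 11 cone genes in place of rod genes, the difference of *Cplx4* was 0.06 and that of *Slc17a7* was -0.03 on the log2 scale, with overlap of the groups for both.

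Scaling every library to an equal summed RPKM of the rod genes shifted the median log2 fold change of the whole table from -0.03 to -0.29. Under it 9535 genes (84.1%) were called, 2.55% of them higher, against 37.8% in the values above, 53.1% with scaling by the median of ratios, 51.4% with the trimmed mean of M values and 51.2% with the upper quartile. In this scaling 7 of the 9 members were called lower, all but *Cplx4* and *Slc17a7*, as were 81.9% of all genes. Relative to the shifted median, *Ctbp2* was at -0.11, *Bsn* at -0.13 and *Pclo* at -0.11, and *Cplx4* was at 0.31 and *Slc17a7* at 0.22. The median of the 9 members was -0.26 in this scaling, beside -0.29 for all genes.

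**Figure D2:**
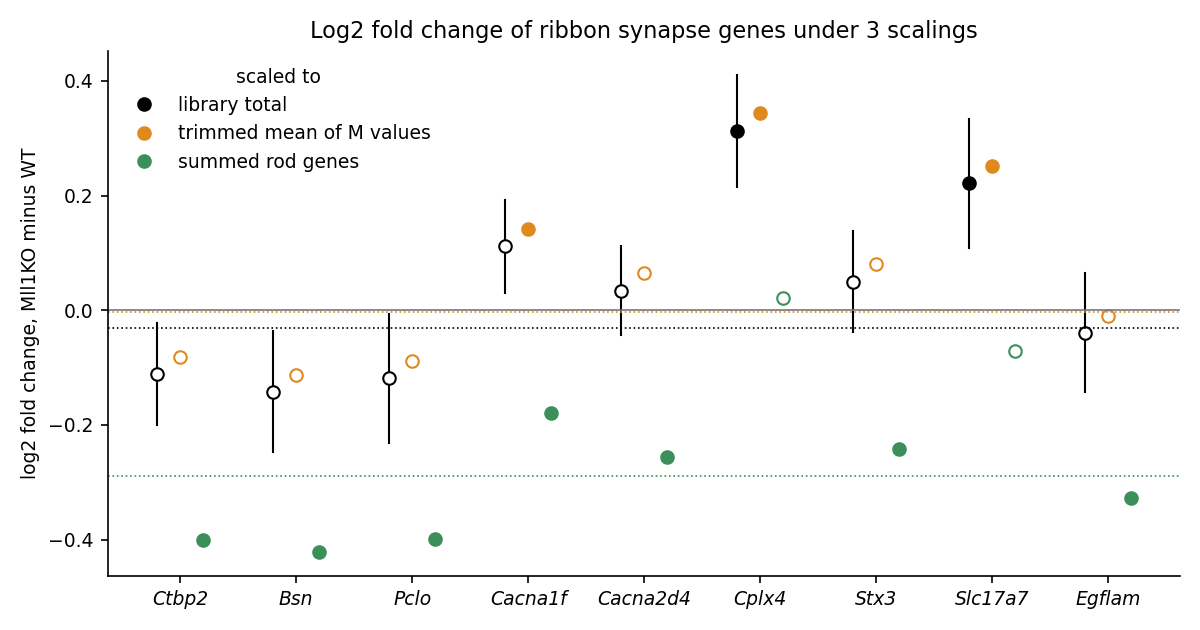
Log2 fold change of each member, *Mll1KO* minus WT, with libraries scaled to their total (black, with 95% confidence intervals), by the trimmed mean of M values (orange) and to the summed rod genes (green). Filled points are called at an adjusted p under 0.05 and dotted lines mark the median of all 11339 genes, which is -0.03 for library totals and -0.29 for rod genes.

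Other genes of the same synapse were read from 6 lists with 83 measured genes in all, of which 14 rose and 17 fell by limma with Benjamini-Hochberg adjustment, with a median log2 fold change of -0.01 that was above 0 with scaling by the median of ratios (0.03), the trimmed mean of M values and the upper quartile. Of 13 active zone genes, 2 rose and 1 fell, with a median of -0.04, and 1 was called without *Mll1KO* sample b or without WT sample b. *Unc119*, which encodes a photoreceptor protein that binds RIBEYE, was the highest at a log2 fold change of 0.19 (-0.10 when scaled to rod genes, and called in 14 of 18 alternatives), and *Erc1*, an active zone scaffold, the lowest at -0.29. Of 11 channel and calcium genes of the terminal, 2 rose and 2 fell, with a median of 0.10 (-0.19 when scaled to rod genes) and with *Cacna1d* the lowest at -0.26. Among 15 genes of the vesicle cycle, 5 rose and 1 fell, with a median of 0.11 (-0.19 when scaled to rod genes). *Sv2a*, a vesicle protein, was the highest at 0.26 (-0.03 when scaled to rod genes) and *Cplx3* the lowest. Of 7 scaffold genes, *Mpp4*, which organizes the photoreceptor terminal, rose by 0.21 on the log2 scale (-0.08 when scaled to rod genes, and not called without *Mll1KO* sample a) and *Cask* fell, with -0.20, the only calls in that list, whose median was -0.03 and above 0 with the median of ratios, the trimmed mean of M values and the upper quartile.

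The next list holds partners of pikachurin and receptors on the bipolar side of the cleft. Of 17 such genes, 2 rose and 6 fell, with a median log2 fold change of -0.08. *Trpm1*, the cation channel of ON bipolar dendrites, measured 62.7, 58.6 and 62.9 RPKM in WT libraries a, b and c and 40.4, 44.1 and 42.8 RPKM in *Mll1KO* libraries a, b and c. It was the lowest of the list, with a log2 fold change of -0.52 (limma with Benjamini-Hochberg adjusted p = 7.95e-05). *Lrfn2*, a synaptic adhesion gene, was the highest, with 0.55 (limma with Benjamini-Hochberg adjusted p = 0.00271). The number of calls in this list was 8, and it was 4 with scaling by the median of ratios and between 3 and 7 when single libraries were left out.

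Paralogs of the members that serve conventional synapses or other cells were compared last. Of 20 measured, 2 rose and 6 fell, with a median log2 fold change of -0.06. *Stx1a*, which encodes syntaxin 1A of conventional synapses, was the lowest at -0.39 (limma with Benjamini-Hochberg adjusted p = 0.00163), at 12.1, 12.7 and 12.7 RPKM in WT libraries a, b and c and 10.2, 8.65 and 9.17 RPKM in *Mll1KO* libraries a, b and c. The calcium channel genes *Cacna1a* (-0.24) and *Cacna1b* (-0.23) of conventional terminals fell, as did *Agrn* (-0.25), which encodes agrin, and *Cacna2d1* (-0.17) and *Cplx1* (-0.15), calls that 9 and 8 of 18 alternatives did not give. *Cacna1s*, the skeletal muscle L-type channel gene, was the highest at 0.73, with 2.04, 1.88 and 1.93 RPKM in WT libraries a, b and c and 3.94, 4.14 and 3.66 RPKM in *Mll1KO* libraries a, b and c. *Cacna2d3* rose by 0.25 on the log2 scale (-0.02 when scaled to rod genes). The other 12 paralogs, among them *Ctbp1*, *Cplx2*, *Slc17a6* and *Slc17a8*, lay between -0.15 and 0.14 and were not called. The ratio of *Ctbp2* to *Ctbp1*, its closest relative, ranged from 0.952 to 1.08 in WT and from 0.971 to 1.03 in *Mll1KO*, with overlap (exact two-sided permutation p = 1).

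**Figure D3:**
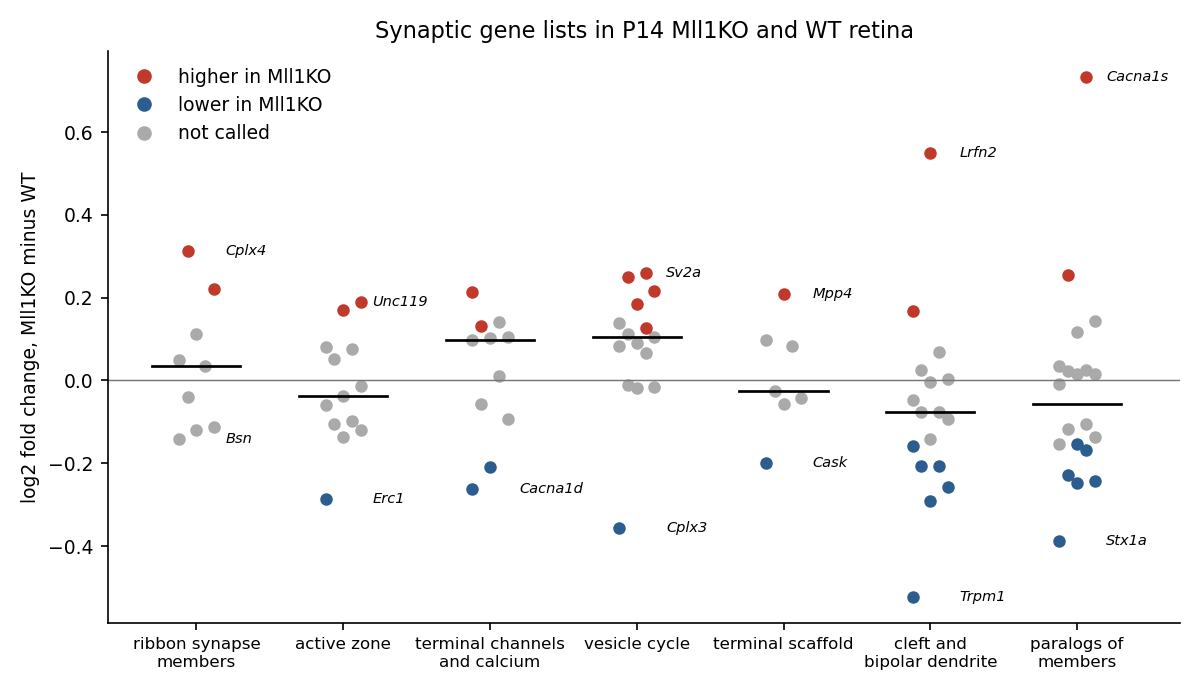
Log2 fold change, *Mll1KO* minus WT, of the 9 members and of the 6 synaptic lists, one point per gene, with red and blue for genes called higher and lower, grey for genes not called and a bar at the median. Genes at the ends of the lists are named where reported, from *Trpm1* at -0.52 to *Cacna1s* at 0.73, and *Unc119*, *Sv2a*, *Mpp4* and *Cacna2d3* are below 0 when scaled to rod genes, as are *Cacna1f*, *Cacna2d4*, *Stx3* and *Slc17a7*.

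The genes of the whole table most like the highest and the lowest member were found from the root mean square difference of centred log2(RPKM + 1) over the 6 libraries. Nearest to *Cplx4* were *Hlf* at 0.0183, *Paqr7* at 0.0234 and *Mboat7* at 0.0318. *Hlf* measured 29.4, 26.9 and 28.8 RPKM in WT libraries a, b and c and 34.7, 34.3 and 36.9 RPKM in *Mll1KO* libraries a, b and c, so that *Mll1KO* sample c was the highest and WT sample b the lowest in both genes. Nearest to *Bsn* were *Skp2* at 0.0132, *Ephb3* at 0.0142 and *Cnot10* at 0.0156, of which *Cnot10* was called (log2 fold change -0.16, limma with Benjamini-Hochberg adjusted p = 0.0219).

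Lists of other cell types in the dissected tissue were counted by the same test. Of 6 measured horizontal cell genes, 0 rose and 5 fell, and their sum was 85.6, 88.5 and 84.1 RPKM in WT libraries a, b and c and 56.7, 58.5 and 61.2 RPKM in *Mll1KO* libraries a, b and c, with *Prox1* the most abundant. Of 9 ganglion cell genes, 0 rose and 8 fell, with a sum of 571, 531 and 558 RPKM in WT and 450, 399 and 372 RPKM in *Mll1KO* and *Sncg* the most abundant. Of 10 Müller glia genes, 6 rose and 2 fell (4 and 4 when scaled to rod genes), with a sum of 1466, 1450 and 1596 RPKM in WT and 1842, 1928 and 1894 RPKM in *Mll1KO* and *Glul* the most abundant. Of 9 amacrine genes, 2 rose and 4 fell (0 and 5 when scaled to rod genes), of 2 astrocyte genes, 2 rose, and of 7 endothelial and pericyte genes, 1 rose and 3 fell. Of 3 microglial, 3 pigment epithelial, 1 lens and 4 blood genes, 0 were called by limma with Benjamini-Hochberg adjustment, 0 were called by limma-voom and 2, *Pmel* and *Cryaa*, had an unadjusted p under 0.05. *Pmel* of the pigment epithelial list stood at 57.1, 15.1 and 99.4 RPKM in WT libraries a, b and c. In *Mll1KO* libraries a, b and c it stood at 9.37, 34.0 and 11.0 RPKM. The lens gene *Cryaa* stood at 6.54, 6.61 and 7.51 RPKM in WT libraries a, b and c. In *Mll1KO* libraries a, b and c it stood at 32.1, 12.4 and 7.28 RPKM. The libraries of a group thus stood apart for *Pmel* in both genotypes and for *Cryaa* in *Mll1KO* only. The groups overlapped for both genes. The defining markers *Lhx1*, *Gja10*, *Th*, *Isl2*, *Pax2*, *P2ry12*, *Tmem119* and *Rpe65* are not analysed here. The part of these cell types in the members' values was not tested.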

How the data were processed

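Retinal RNA of 3 *Mll1KO* and 3 WT samples, 2 retinas each, was isolated and sequenced as single reads. Per the submitters' processing notes the authors used STAR 2.0.4b, featureCounts 1.45 and edgeR 3.17.9 on mm10, while the methods write the build as GRCh38.76 and state a filter of CPM above 5 in at least 5 samples. The RPKM values used here were deposited by the authors, scaled to gene length and library total. The deposited log2 fold changes, log2 mean CPM, p-values and FDR of the authors' own edgeR comparison were not used. The table held 11404 lines for 11339 genes, of which 65 repeated a gene ID with the same values. Library totals were those at which RPKM and annotated exon lengths gave whole reads. With them whole reads were recovered for 100% of genes in all libraries, within 0.01 reads plus 1e-07 of the reads. The annotated length was used for 53.3% of genes. For the others it was the shortest length that gave whole reads under the authors' filter. For 91 genes another length that is not a multiple was possible. Annotation was GENCODE vM21 (GRCm38), in which 11329 gene IDs were found. Of the exon bases of *Pclo* and *Egflam*, 4.12% and 3.23% lie in exons of other genes, as do 13.8% of those of *Mpp4* and 11.8% of those of *Erc1*. Whether counting used strand is not given in the sources used here.

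Differences were fitted with limma 3.58.1 in R 4.3.3 on log2(RPKM + 1), with a variance trend, genotype as the only term and Benjamini-Hochberg adjustment over all 11339 genes at 0.05. The fit was tested on simulated reads. Single ratios were tested with exact permutation tests (scipy 1.17.1). Replicates are labelled a to c and are biological replicates by the study's methods. Whether samples shared an animal is not given in the sources used here, and p-values measure the spread between these samples. The members and gene lists were chosen with earlier results of these data known. Named are all members, *Kmt2a*, the highest and lowest gene of each synaptic list, the measured paralogs, and the 3 genes nearest to the highest and the lowest member. Other genes are named as markers. *Slc17a6* counts among paralogs and ganglion cell genes, *Trpm1* and *Grm6* among bipolar and postsynaptic genes, and *Cabp5* among bipolar and terminal channel and calcium genes. Alternatives were pseudocounts of 0.1 and 5, filters at a mean RPKM of 1 and 5, other scalings, no variance trend, limma-voom, a replicate block, the last line of a repeated gene ID and leaving out each library. The values of a few single genes, counted in their lists, are not reported here.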

Additional observations from a re-analysis of the deposited data

How the results depend on the processing

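Of 234 alternative values for the members and the counts of calls, 205 kept their direction and side of the threshold, or stayed within 1.5 times a count. Of the other 29, 13 came from scaling libraries to rod genes, which made the log2 fold change -0.42 for *Bsn*, -0.40 for *Ctbp2*, -0.40 for *Pclo*, -0.33 for *Egflam*, -0.18 for *Cacna1f*, -0.26 for *Cacna2d4*, -0.24 for *Stx3*, -0.072 for *Slc17a7* and 0.021 for *Cplx4*. It also gave -0.022 for *Cacna2d3*, -0.081 for *Mpp4*, -0.032 for *Sv2a* and -0.10 for *Unc119*, and it called 9535 genes, 7 members, and 2 higher and 71 lower genes of the synaptic lists. The shift of the whole table is part of how this scaling is built. *Cacna1f* was called at 0.15 with the median of ratios, 0.14 with the trimmed mean of M values, 0.14 with the upper quartile and 0.11 with limma-voom. Its adjusted p by limma ranged from 0.00448 to 0.13 over 18 alternatives. The lowest came from the scaling to rod genes, where *Cacna1f* was called lower, at -0.18. Limma-voom called 5 members, with *Bsn* at -0.15 and *Ctbp2* at -0.11 among them. The median of ratios called 11 synaptic genes lower in place of 17. For these changes the cause was not tested.

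Leaving out single libraries, with fewer samples, gave 1704 to 2536 called genes, 9 to 13 synaptic genes called higher and 11 to 16 lower, *Bsn* between -0.19 and -0.12 and *Egflam* between -0.072 and 0.000704. The letters a to c were not taken as pairs in the main fit. Deviations of *Mll1KO* and WT samples with the same letter correlated at -0.04, -0.19 and -0.01. No positive correlation was thus seen, but these values cannot settle whether the samples were collected in pairs. With the letter as a replicate block, 2242 genes and 2 members were called. Of 539 other values (other named genes, ratios, levels relative to rod genes and calls per list), 492 stayed the same, 21 calls were lost, 22 values moved by more than their spread or count limit, and 4 log2 fold changes, listed above, changed sign. Ratios and levels relative to rod genes were judged by their spread and not by their sign, which changed for some values near 0. With at least 90 reads for any gene in any library, depth limits the least expressed genes most. The members had at least 5043 reads in each library.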
